A study of Bos taurus with 11 samples.

Results

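The *miR-30* family was described in mammary tissue of lactating dairy cows by small RNA sequencing. Its members were the listed names that matched an entry of the count table exactly, and all 7 were found among the 796 miRNAs of the table: *bta-miR-30a-5p*, *bta-miR-30b-5p*, *bta-miR-30b-3p*, *bta-miR-30c*, *bta-miR-30d*, *bta-miR-30e-5p* and *bta-miR-30f*. Mid-lactating cows, 5 Holstein and 6 Montbéliarde, each gave 1 biopsy from the rear udder for 1 library, and the study asked how the mammary miRNomes of these breeds differ. All cows received the same diet, and no cow was treated or genetically modified. A biopsy holds secretory epithelium together with stroma, vessels and blood cells, so fewer cells of a type and less RNA per cell cannot be told apart in these values. Libraries are named by their tags, CNLX1, 3, 5, 7 and 9 for Holstein and CNLX13, 15, 17, 19, 21 and 23 for Montbéliarde. Any effect of the order of these tags cannot be told apart from breed. Between 6087865 and 16808976 reads were counted on miRNAs per library.

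A miRNA guides the silencing complex to messenger RNAs that pair with its seed, the short stretch near its 5′ end. The 5p members of the *miR-30* family share a seed and differ mainly in their 3′ parts, so they are expected to bind largely the same targets. The family is abundant in epithelial tissues, where it represses the transcription factor SNAI1, a driver of the change from epithelial to mesenchymal cells. It also represses RUNX2, a regulator of bone formation, in adipocyte differentiation, and the Notch ligand DLL4 in vessels. The 3p arm of a hairpin such as that of *miR-30b* is usually degraded as the passenger strand. Because the members are so alike, a read with a sequencing error or a trimmed end can be counted on the wrong one. The counting of reads with several matching miRNAs is not given in the sources used here, and the split of reads between members is uncertain to that extent. Among miRNAs with a mean of at least 10 raw counts, pairs with the same counts or a constant ratio were sought, within a tolerance of 0.5%. No member was in such a pair, whereas 10 pairs of other miRNAs were found. *MiR-30b-3p* fell below that mean and was not checked.

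In the RefSeq annotation of ARS-UCD2.0, a later assembly than that of the count table, the 6 hairpin genes of the family form 3 pairs of neighbours. *MIR30C* and *MIR30E* both lie inside *NFYC*, the gene of a subunit of the transcription factor NF-Y. *MIR30B* and *MIR30D* are neighbours and lie inside no other annotated gene. *MIR30A* lies inside the uncharacterized protein-coding gene *LOC132346186*, and the miRNA gene nearest to it is *MIR30F*, which has no host gene.

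The family was dominated by *miR-30a-5p*, with an order of members that was nearly fixed over the cows. Levels are given as normalized read counts, which are raw counts divided by the DESeq2 size factor of the library. *MiR-30a-5p* ranked between 2 and 5 among all miRNAs of a library, *miR-30d* between 17 and 20 and *miR-30e-5p* between 24 and 42. *MiR-30b-5p* ranked between 55 and 73, *miR-30c* between 61 and 80, *miR-30f* between 75 and 112 and the passenger arm *miR-30b-3p* between 317 and 397. Reads of *miR-30a-5p* were 8.98 to 14.2 times those of *miR-30d*, which were 1.90 to 2.76 times those of *miR-30e-5p*. Those 3 members therefore did not overlap in any library. *MiR-30b-5p* exceeded *miR-30c* in 10 of 11 libraries, at a ratio of 0.936 to 1.37, and the exception was CNLX13. The ranges of *miR-30b-5p* and *miR-30c* over the cows overlapped, while the median of their ratio within a library was 1.16. This difference in level was not tested. Every miRNA is ligated and amplified with its own efficiency, so the order is one of reads and not necessarily of molecules.

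**Figure D1:**
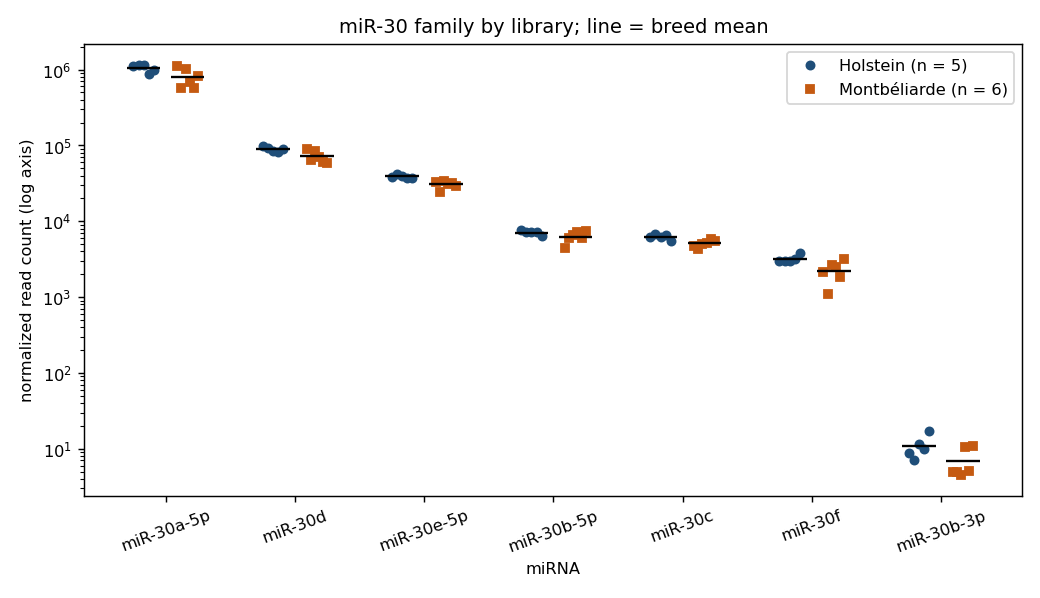
Normalized read count of each *miR-30* member in each library, on a log axis, with 5 Holstein libraries as circles, 6 Montbéliarde libraries as squares and the breed mean as a line. The members span from *miR-30b-3p*, with 3 to 19 raw reads per library, to *miR-30a-5p*, with 461269 to 1938340, and the breeds overlap for every member but *miR-30e-5p*.

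Together the 7 members took 12.3% ± 0.807 of a library's counted reads for Holstein (SD, n = 5) and 9.40% ± 2.54 for Montbéliarde cows (SD, n = 6). The Holstein libraries, in the order of their tags, had family shares of 13.4%, 12.2%, 12.9%, 11.5% and 11.7%. The Montbéliarde shares ran from 5.92% in CNLX15 and 7.0% in CNLX21 to 12.4% in CNLX13. The breeds overlapped, and the Montbéliarde cows were spread over a wider range that reached into the Holstein values. Most of the family share was *miR-30a-5p*, which alone made up 10.8% ± 0.793 (SD, n = 5) of the Holstein and 8.22% ± 2.39 (SD, n = 6) of the Montbéliarde reads. Its lowest share, in CNLX15, was 5.05%, with a Wilson 95% confidence interval of 5.03% to 5.06% that covers counting error only. The other 6 members together took 1.48% ± 0.0877 of the Holstein reads (SD, n = 5) and 1.19% ± 0.175 of the Montbéliarde reads (SD, n = 6).

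The make-up of the family itself differed little between the breeds. *MiR-30a-5p* accounted for 87.9% ± 0.960 of the family's reads in Holstein cows (SD, n = 5) and for 86.9% ± 2.19 of them in Montbéliarde cows (SD, n = 6). *MiR-30d* followed with 7.42% ± 0.628 (SD, n = 5) and 8.02% ± 1.25 (SD, n = 6), and *miR-30e-5p* with 3.27% ± 0.275 (SD, n = 5) and 3.48% ± 0.770 (SD, n = 6). These differences were smaller than the SD within Montbéliarde cows. *MiR-30b-5p*, *miR-30c* and *miR-30f* were each below 1% of the family in every library, and *miR-30b-3p* supplied on average 0.000917% of it in Holstein and 0.000795% in Montbéliarde cows.

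No member passed the test between breeds, although all 7 had a lower mean in Montbéliarde cows. The breed comparison used raw counts and edgeR's quasi-likelihood test, and log2 fold changes are Montbéliarde over Holstein. Of the 550 miRNAs tested, 2 passed a Benjamini-Hochberg adjusted p of 0.05 (0.364%), against 0 of the 7 members. At an unadjusted p of 0.05, 36 of the 550 miRNAs were lower in Montbéliarde (6.55%), and so were 4 of the 7 members, namely *miR-30a-5p*, *miR-30d*, *miR-30e-5p* and *miR-30f*. The median log2 fold change was -0.36 over the members and 0.03 over all miRNAs tested, of which 262 (47.6%) had a negative value. Several members were correlated over the cows, as described later, so that their 7 directions are not independent of each other.

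**Figure D2:**
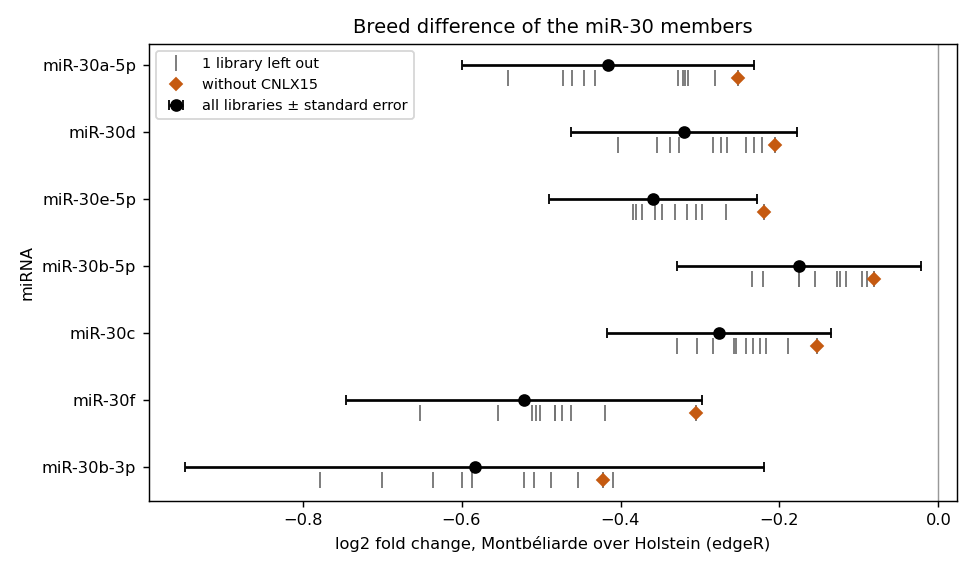
Log2 fold change of each *miR-30* member, Montbéliarde over Holstein, from edgeR with all 11 libraries (circle, with its standard error) and with each library left out in turn (ticks). All values lie below 0, and the value without CNLX15 (diamond) is the closest to 0 for 6 of the 7 members.

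*MiR-30e-5p* and *miR-30c*, whose genes lie in *NFYC*, are taken first. *MiR-30e-5p* was the only member whose Holstein libraries were all above every Montbéliarde library. In Holstein cows its normalized read counts were 38161, 42444, 40124, 37672 and 37562, and in Montbéliarde cows they ranged from 24338 in CNLX15 over a median of 31721 to 33923 in CNLX17. The gap held as a share of counted reads and on TMM-scaled counts too, and 9 of the 550 miRNAs tested (1.64%) had every Holstein library above every Montbéliarde library. The means were 39192 ± 2090 (SD, n = 5) and 30598 ± 3487 (SD, n = 6), a log2 fold change of -0.36 (SE 0.13). In edgeR's quasi-likelihood test this gave an unadjusted p of 0.0156 and a Benjamini-Hochberg adjusted p of 0.231. With the Wald test of DESeq2, the tool of the study, the log2 fold change was also -0.36 and the Benjamini-Hochberg adjusted p was 0.0363, so that the call for *miR-30e-5p* depended on the test. Without CNLX15 the log2 fold change was -0.22.

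*MiR-30c* showed a similar order of breeds with more overlap. Its normalized read counts were 6198, 6705, 6261, 6530 and 5439 in Holstein cows. They ranged from 4376 in CNLX15 over a median of 5143 to 5903 in CNLX21 in Montbéliarde cows. Of the 5 Holstein libraries, 4 were above all Montbéliarde libraries, and CNLX9 lay among them. The log2 fold change was -0.28 (SE 0.14), with an adjusted p of 0.366 (edgeR's quasi-likelihood test, Benjamini-Hochberg), and it was -0.15 without CNLX15. The ratio of these neighbours varied least of the 5 ratios computed, with 5.77 to 6.91 reads of *miR-30e-5p* per read of *miR-30c* in Holstein and 5.21 to 6.94 in Montbéliarde cows.

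*MiR-30a-5p*, the main member, was very abundant in all Holstein cows and uneven in Montbéliarde cows. Its normalized read counts in Holstein were 1112820, 1160380, 1169590, 880943 and 987614. In Montbéliarde they ranged from 567606 in CNLX21 and 576413 in CNLX15 over a median of 763227 to 1126430 in CNLX13. CNLX13 lay within the Holstein range and so did CNLX17, at 1011860, while the other 4 were below all Holstein libraries. The means were 1062270 ± 124651 (SD, n = 5) and 801461 ± 231848 (SD, n = 6). The log2 fold change of -0.42 (SE 0.18) had a Benjamini-Hochberg adjusted p of 0.325 in edgeR's quasi-likelihood test. Without CNLX15 it was -0.25, and without CNLX13 it was -0.54.

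*MiR-30f*, whose gene is the miRNA gene nearest to *MIR30A*, had the widest relative spread in Montbéliarde cows among the 6 abundant members. Its normalized read counts were 3017, 2961, 3038, 3183 and 3776 in Holstein cows, and ranged from 1101 in CNLX15 over a median of 2316 to 3189 in CNLX23 in Montbéliarde cows. CNLX23 was the only Montbéliarde library inside the Holstein range. The log2 fold change was -0.52 (SE 0.22), with an adjusted p of 0.316 (edgeR's quasi-likelihood test, Benjamini-Hochberg), and it was -0.31 without CNLX15.

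*MiR-30d* and the arms of *miR-30b* come from the remaining pair of neighbouring genes. *MiR-30d* had normalized read counts of 97388, 93173, 84890, 80944 and 88939 in Holstein cows, and ranged from 58816 in CNLX23 over a median of 67454 to 90863 in CNLX13 in Montbéliarde cows. As for *miR-30a-5p*, CNLX13 and CNLX17 were within the Holstein range and the other 4 below it. The log2 fold change was -0.32 (SE 0.14), with an adjusted p of 0.325 (edgeR's quasi-likelihood test, Benjamini-Hochberg), and it was -0.21 without CNLX15.

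*MiR-30b-5p* had the smallest difference in the family. Its normalized read counts were 7591, 7124, 7162, 7126 and 6313 in Holstein cows, and ranged from 4435 in CNLX13 over a median of 6317 to 7438 in CNLX23 in Montbéliarde cows. CNLX13, which had the highest *miR-30a-5p* and *miR-30d* of its breed, thus had the lowest *miR-30b-5p* of all cows. The log2 fold change was -0.18 (SE 0.15), with an adjusted p of 0.629 (edgeR's quasi-likelihood test, Benjamini-Hochberg), and it was -0.08 without CNLX15. *MiR-30b-3p* had 10, 7, 19, 15 and 13 raw reads in the Holstein libraries and 3 to 14 in the Montbéliarde libraries. Its log2 fold change of -0.58 (SE 0.36, Benjamini-Hochberg adjusted p = 0.469 in edgeR's quasi-likelihood test) was the largest of the family in size and the least precise. At this depth the difference was not distinguishable from the spread between cows and counting error.

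The coefficient of variation between cows was higher in Montbéliarde than in Holstein for all 7 members. It was 28.9% against 11.7% for *miR-30a-5p*, 32.4% against 10.5% for *miR-30f* and 10.7% against 7.80% for *miR-30c*. This difference in spread was not tested, and how many of all miRNAs shared it was not counted. It was not particular to the family, since the SD of *miR-141* was 90722 in Montbéliarde and 46034 in Holstein. Each epithelial, mesenchymal, leukocyte and erythroid marker described later also had the larger SD in Montbéliarde. The SD of *miR-126-5p* went the other way, with 21076 in Montbéliarde and 30850 in Holstein, and so did those of some muscle markers. The other arm, *miR-126-3p*, had 3444 in Montbéliarde and 1888 in Holstein. These SDs were not divided by the mean, unlike the coefficients of variation.

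Ratios between members of a library do not depend on its normalization, and none of the 4 compared differed between breeds by more than the spread. *MiR-30d* outnumbered *miR-30b-5p* by 11.4 to 14.1 times in Holstein and by 7.91 to 20.5 times in Montbéliarde cows, with the lowest value in CNLX23 and the highest in CNLX13. The log2 ratio of *miR-30b-5p* to *miR-30d* was 0.14 higher in Montbéliarde (exact permutation test, two-sided, p = 0.545). Without CNLX13 that difference was 0.31 (exact permutation test, p = 0.0317, unadjusted), so that its size depended on this single library. No adjusted value was computed for this omission. The log2 ratio of *miR-30c* to *miR-30e-5p* was 0.09 higher in Montbéliarde (exact permutation test, p = 0.338) and that of *miR-30c* to *miR-30a-5p* was 0.17 higher (exact permutation test, p = 0.494). *MiR-30b-5p*, the guide arm, had 373 to 1474 reads for each read of *miR-30b-3p*, and the log2 ratio of the 3p to the 5p arm differed by -0.37 between Montbéliarde and Holstein (exact permutation test, p = 0.225). With a pseudocount of 10 in place of 1 that difference turned to 0.12 (exact permutation test, p = 0.580), so that its direction was not settled. All 4 Benjamini-Hochberg adjusted values were 0.545 (exact permutation tests), and the smallest p that the design allows is 0.00216.

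The neighbour that the annotation gives for *MIR30A* led to a further ratio, chosen after seeing the data. There were 262 to 392 reads of *miR-30a-5p* per read of *miR-30f* in Holstein and 262 to 528 in Montbéliarde cows, so that the ranges overlapped almost entirely. The difference in the log2 ratio of *miR-30f* to *miR-30a-5p* was -0.14 (exact permutation test, p = 0.554).

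**Figure D3:**
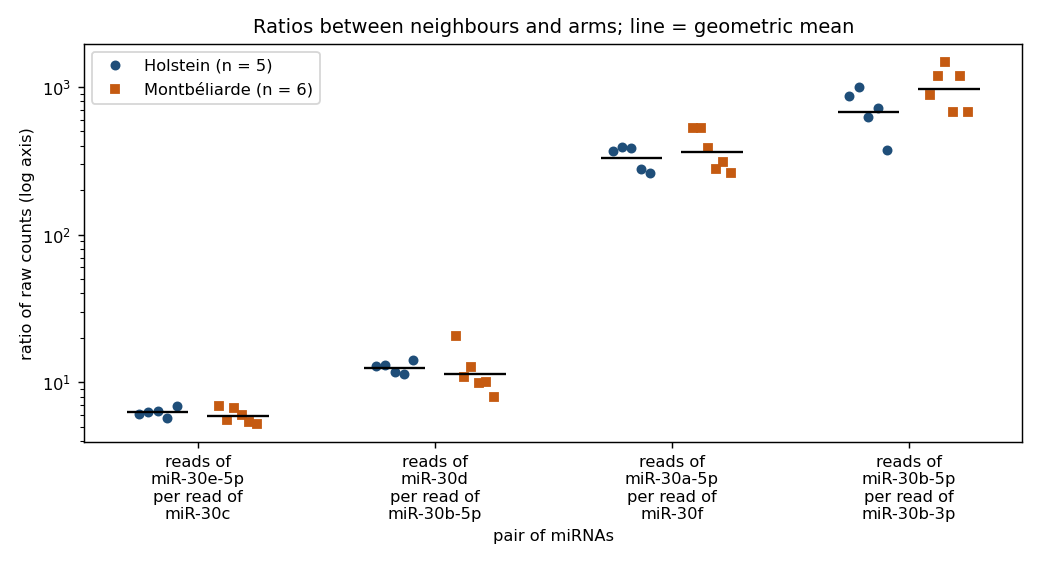
Ratio of raw counts within each library for 3 pairs of neighbouring genes and for the arms of the *miR-30b* hairpin, on a log axis, with Holstein libraries as circles, Montbéliarde libraries as squares and the geometric mean as a line. The ratio of *miR-30e-5p* to *miR-30c* stays between 5.21 and 6.94, while that of *miR-30d* to *miR-30b-5p* runs from 7.91 to 20.5 in Montbéliarde cows.

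Members did not all vary together over the cows. Correlations were computed for the 21 pairs of members over the 11 libraries, on log2(normalized read count + 1), with permutation tests and Benjamini-Hochberg adjustment over the 21 pairs. Pearson's r ranged from -0.03 to 0.855, and 5 pairs had adjusted values of at most 0.05 for both Pearson's r and Spearman's rho. The size factor of a library enters both values of a pair, and TMM scaling moved r by at most 0.077 without changing its sign for any pair.

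The 3 most abundant members were correlated over all 11 cows, which pool the breeds, but within the 6 Montbéliarde cows alone none of their pairs passed the limit (exact permutation p = 0.0806, 0.228 and 0.186). *MiR-30a-5p* and *miR-30d*, whose genes are not neighbours, had the highest correlation, with r = 0.855 (permutation p = 0.00318, adjusted 0.0330) and rho = 0.809 (permutation p = 0.00376, adjusted 0.0402). Without CNLX15 and CNLX21, the libraries farthest from the median of *miR-30a-5p*, r was 0.762, and within the 6 Montbéliarde cows it was 0.787. *MiR-30a-5p* and *miR-30e-5p* had r = 0.765 (permutation p = 0.00864, adjusted 0.0363) and rho = 0.800 (permutation p = 0.00464, adjusted 0.0402), with r = 0.663 without the same 2 libraries (permutation p = 0.0612, past the limit no longer) and 0.581 within Montbéliarde. *MiR-30d* and *miR-30e-5p* had r = 0.771 (permutation p = 0.00746, adjusted 0.0363) and rho = 0.773 (permutation p = 0.00772, adjusted 0.0402), with r = 0.817 without CNLX21 and CNLX23 and 0.572 within Montbéliarde. The 5 Holstein cows were too few for a correlation of their own.

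Of the pairs of neighbouring genes, 1 was correlated past the limit. *MiR-30e-5p* and *miR-30c* had r = 0.793 (permutation p = 0.00472, adjusted 0.0330) and rho = 0.755 (permutation p = 0.00956, adjusted 0.0402). This relation rested in part on CNLX3 and CNLX15, since r was 0.542 without them (permutation p = 0.134) and 0.473 within Montbéliarde. For *miR-30a-5p* and *miR-30f*, r was 0.677 (permutation p = 0.0337, adjusted 0.101) and rho 0.336 (permutation p = 0.312, adjusted 0.504), and r was 0.00087 without CNLX15 and CNLX21, so that it rested on those libraries. *MiR-30b-5p* and *miR-30d*, neighbours too, had r = -0.03 (permutation p = 0.970, adjusted 0.970) and rho = 0.045 (permutation p = 0.902, adjusted 0.947), with r = 0.037 without CNLX21 and CNLX23 and -0.57 within Montbéliarde (exact permutation p = 0.281). *MiR-30f* and *miR-30b-3p* had r = 0.715 (permutation p = 0.00380, adjusted 0.0330) and rho = 0.782 (permutation p = 0.00654, adjusted 0.0402), with r = 0.764 without CNLX15 and CNLX21 and 0.553 within Montbéliarde, but the counts of *miR-30b-3p* are too sparse to rest a result on.

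**Figure D4:**
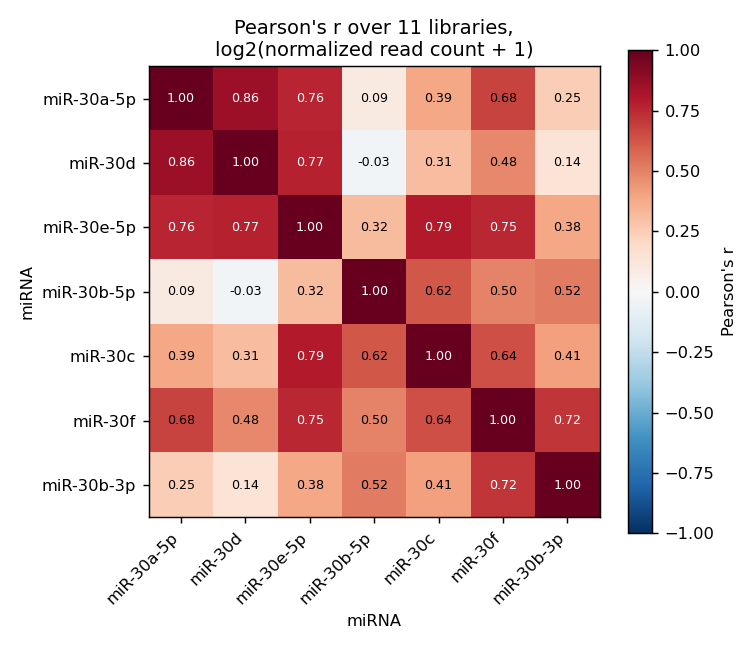
Pearson's r between the *miR-30* members over the 11 libraries, on log2(normalized read count + 1), in the order of their mean counts. *MiR-30a-5p*, *miR-30d* and *miR-30e-5p* form a block with r from 0.765 to 0.855, whereas *miR-30b-5p* has r = -0.03 with *miR-30d*.

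Outside the family, the miRNAs that followed *miR-30a-5p* most closely were not those that followed *miR-30e-5p*. Among 208 miRNAs with a mean of at least 100 normalized reads, the 3 with the highest r to *miR-30a-5p* over the 11 libraries were *miR-141* (r = 0.919, rho = 0.845), *miR-29c* (r = 0.878, rho = 0.745) and *miR-200c* (r = 0.873, rho = 0.673). *MiR-141* and *miR-200c* belong to the *miR-200* family, which maintains the epithelial state. The 3 closest to *miR-30e-5p* were *miR-16a* (r = 0.856, rho = 0.927), *miR-186* (r = 0.833, rho = 0.800) and *miR-2284ab* (r = 0.822, rho = 0.782). *MiR-16a* and *miR-186* shared a Benjamini-Hochberg adjusted p of 0.0370 in edgeR's quasi-likelihood test and were the only miRNAs that passed it with all libraries, both lower in Montbéliarde, with log2 fold changes of -0.79 (SE 0.15) and -0.77 (SE 0.15). Within the 6 Montbéliarde cows, r with *miR-30a-5p* was 0.944 for *miR-141*, 0.872 for *miR-29c* and 0.881 for *miR-200c*, whereas r with *miR-30e-5p* was 0.476 for *miR-16a*, 0.514 for *miR-186* and 0.842 for *miR-2284ab*. These correlations describe the libraries, share their scaling and the difference between the breeds, and carry no test.

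Marker miRNAs of epithelial and mesenchymal cells also varied between the cows. Of 7 epithelial markers listed, 6 matched an entry of the count table by name, and *miR-203* did not. The 6 analysed, *miR-200a*, *miR-200b*, *miR-200c*, *miR-141*, *miR-429* and *miR-205*, were all well detected. Together they held 3.62% to 4.78% of the counted reads in Holstein and 1.59% to 4.63% in Montbéliarde cows. None passed the adjusted test, 5 had a lower mean in Montbéliarde, and 2 of them were past an unadjusted p of 0.05, *miR-141* with a log2 fold change of -0.74 (SE 0.26) and *miR-200c* with -0.61 (SE 0.27), against 6.55% of all miRNAs tested that were lower at this limit. Of the remaining markers, the log2 fold change was -0.33 (SE 0.22) for *miR-429*, -0.10 (SE 0.22) for *miR-200b*, -0.04 (SE 0.25) for *miR-200a* and 0.38 (SE 0.19) for *miR-205*, a marker of basal epithelial cells. *MiR-141* was the most abundant of the list, with a mean normalized read count of 310902 in Holstein and 188093 in Montbéliarde cows, and weighs most in the summed share. The 5 mesenchymal markers, *miR-143*, *miR-145*, *miR-199a-3p*, *miR-199a-5p* and *miR-214*, held 16.0% to 21.4% in Holstein and 21.99% to 33.9% in Montbéliarde cows. These shares did not overlap, but the highest Holstein value, in CNLX3, was close to the lowest Montbéliarde value, in CNLX13. None passed the adjusted test, 4 had a higher mean in Montbéliarde, and 2 were past an unadjusted p of 0.05, *miR-143* with a log2 fold change of 0.58 (SE 0.18) and *miR-199a-3p* with 0.67 (SE 0.26), against 7.64% of all miRNAs tested that were higher at this limit. The summed share was almost wholly that of *miR-143*, with a mean normalized read count of 1838350 in Holstein and 2757170 in Montbéliarde cows, while no other miRNA of the list had a mean above 9643. On normalized read counts the breeds overlapped for *miR-143*, so the separation of the summed share depended on the scale. *MiR-145*, which is processed from the same cluster as *miR-143*, had a log2 fold change of -0.27 (SE 0.25).

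The same Montbéliarde libraries stood at the ends of all 3 shares. CNLX15, with the lowest family share, also had the lowest epithelial and the highest mesenchymal share of all cows. CNLX21 came next, with 7.0%, 1.87% and 32.9%. CNLX13, with the highest family share of its breed, had the highest epithelial share of its breed, 4.63%, and the lowest mesenchymal share, 21.99%. In Holstein, CNLX1 was highest in family and epithelial share and lowest in mesenchymal share, but other libraries differed. CNLX5 had a family share of 12.9% with the lowest Holstein epithelial share, 3.62%. CNLX7 had the lowest Holstein family share, 11.5%, with an epithelial share of 4.64%. The 3 shares are parts of the same total, so a rise of 1 lowers the others.

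**Figure D5:**
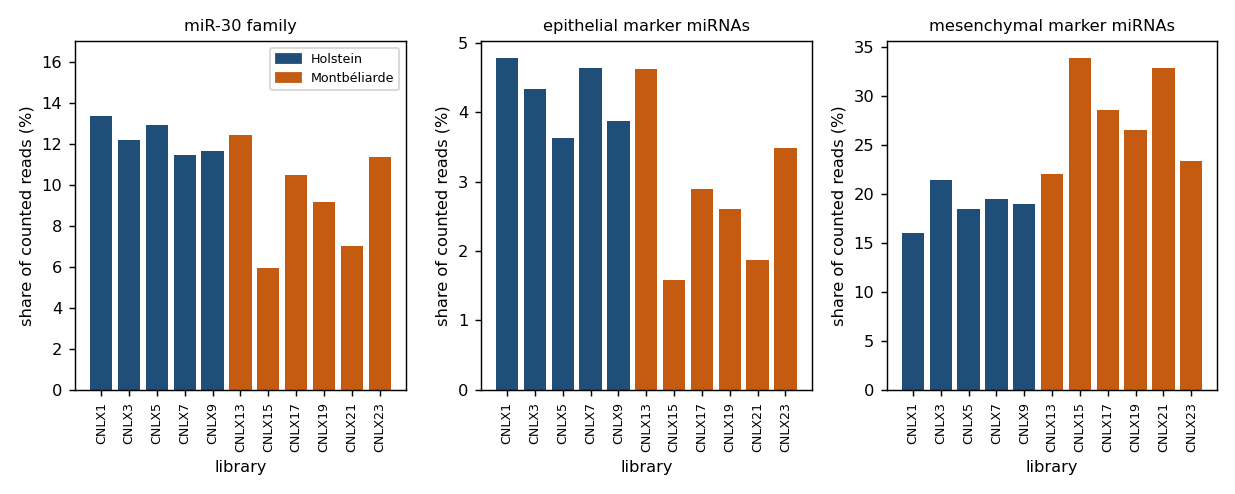
Share of the counted reads of each library held by the *miR-30* family, by 6 epithelial marker miRNAs and by 5 mesenchymal marker miRNAs, with Holstein in blue and Montbéliarde in orange. In CNLX15 and CNLX21 the family and epithelial shares are lowest, at 5.92% and 7.0% and at 1.59% and 1.87%, and the mesenchymal shares are highest, at 33.9% and 32.9%.

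A fit with the summed epithelial markers as covariate, added once the data had been seen, changed the members unequally. *MiR-141* weighed most in this sum and was itself lower in Montbéliarde, with a log2 fold change of -0.74. It was also the closest of 208 miRNAs to *miR-30a-5p* (r = 0.919), so a smaller fitted value for *miR-30a-5p* could be foreseen from these relations. What lies behind these changes was not tested. The log2 fold change was -0.01 (SE 0.16) for *miR-30a-5p* and -0.11 (SE 0.16) for *miR-30d*. It was -0.28 (SE 0.17) for *miR-30e-5p*, -0.34 (SE 0.19) for *miR-30c*, -0.34 (SE 0.20) for *miR-30b-5p*, -0.30 (SE 0.30) for *miR-30f* and -0.76 (SE 0.54) for *miR-30b-3p*. The fitted breed difference of *miR-30a-5p*, *miR-30d*, *miR-30f* and *miR-30e-5p* was thus smaller in size beside the epithelial markers than without them, and that of *miR-30c* and both *miR-30b* arms was larger. No member passed the test with the covariate (lowest adjusted p = 0.755, edgeR's quasi-likelihood test, Benjamini-Hochberg), and the differences between members were not tested.

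The other marker lists gave no single miRNA past an unadjusted limit. The 5 leukocyte markers and the 3 erythroid markers all had a higher mean in Montbéliarde and the 2 arms of the endothelial *miR-126* a lower one, while of 3 muscle markers tested 1 was lower and 2 were higher. None of these 13 miRNAs had an unadjusted p under 0.05. Leukocyte markers held 0.186% to 0.304% of the reads in Holstein and 0.187% to 0.345% in Montbéliarde cows, erythroid markers 0.267% to 0.390% and 0.242% to 0.526%, endothelial markers 2.47% to 3.26% and 2.23% to 3.10%, and muscle markers at most 0.0171%. The part of these and of the mesenchymal markers in the values of the *miR-30* family was not tested.

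A list of 15 miRNAs known for roles in lipid metabolism and adipocytes was divided in direction, much like all miRNAs tested, of which 47.6% had a negative log2 fold change. Of the 14 tested, 6 had a lower and 8 a higher mean in Montbéliarde, with a median log2 fold change of 0.12, and none passed the adjusted test. *MiR-143*, which also stands among the mesenchymal markers, and *miR-130a*, a repressor of PPARG, were past an unadjusted p of 0.05, both with a higher mean in Montbéliarde (log2 fold changes of 0.58 and 0.57). *MiR-33a*, which lies in the sterol regulator gene *SREBF2*, had a log2 fold change of -0.02 (SE 0.22).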

How the data were processed

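Small RNA libraries of 11 mammary biopsies were analysed. The authors trimmed adaptors, kept reads of 15 to 40 nt and quantified miRNAs with ncPRO-seq and miRDeep2. They deposited a table of unnormalized counts, 1 row per mature miRNA and 1 column per library. Their 11 columns of normalized values, the breed means and the columns of their own DESeq2 comparison (log2 fold change, p-value, adjusted p-value) were not used. The submitters' processing notes name bcl2fastq 2.17.1.14 and DESeq2 1.18.1.

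Breeds were taken from the sample records. Counts were tested with edgeR 4.0.16 in R 4.3.3 (TMM, robust glmQLFit, glmQLFTest) over the 550 miRNAs that reached 10 counts in all libraries together, with Benjamini-Hochberg adjustment over all of them. SEs were derived from the log2 fold change and F. Levels are counts divided by DESeq2 1.42.0 size factors. Ratios, with a pseudocount of 1, were compared with exact permutation tests, and correlations with permutation tests of 100000 resamples, two-sided, in scipy 1.17.1. DESeq2, limma 3.58.1, other scalings and filters, a library size covariate and the omission of single libraries were alternatives. The fits were tried on simulated counts with no change or with changes far larger than those of the members. That trial cannot show whether changes as small as the members' would be called. Confidence intervals and floors cover counting error only. At 6087865 to 16808976 counted reads per library, the floor of 3 counts lay between 1.78e-05% and 4.93e-05%.

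All members were named, with the 3 miRNAs of highest r to *miR-30a-5p* and to *miR-30e-5p*, and from each list the miRNAs past an unadjusted p of 0.05. *MiR-33a* was named after its value was seen. The members and lists were chosen with earlier results of these data known. Gene neighbours came from RefSeq, ARS-UCD2.0, and no coordinates are given because the counts rest on an earlier assembly.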

Additional observations from a re-analysis of the deposited data

Results flagged for a closer look

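In 26 groups, each of the 5 Holstein or the 6 Montbéliarde libraries, a value far from the others was sought. By Dixon's criterion 2 stood out, and chance gives about 1 in 20. The normalized read count of *miR-30f* in the Holstein library CNLX9 was 3776, above the other 4 Holstein libraries at 2961 to 3183. The log2 ratio of *miR-30c* to *miR-30a-5p* in the Holstein library CNLX7 was -7.08, that is 135 reads of *miR-30a-5p* per read of *miR-30c*, against 173 to 187 in the other 4 Holstein libraries.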

How the results depend on the processing

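All members had a negative log2 fold change in every fit that gave them a value. That covers 20 alternatives for 6 members and 19 for *miR-30b-3p*, which falls below a mean of 100 counts and has no value under that filter. With single libraries left out, the log2 fold change ranged from -0.54 to -0.25 for *miR-30a-5p*, from -0.40 to -0.21 for *miR-30d*, from -0.38 to -0.22 for *miR-30e-5p* and from -0.65 to -0.31 for *miR-30f*. The value nearest to 0 came without CNLX15 for all members but *miR-30b-3p*, for which it came without CNLX9. Library size as covariate moved the members unequally. The log2 fold change was then -0.05 for *miR-30b-5p* and -0.16 for *miR-30c*, nearer to 0. It was -0.56 for *miR-30a-5p*, -0.45 for *miR-30d* and -0.55 for *miR-30f*, farther from 0. For *miR-30e-5p* (-0.35) and *miR-30b-3p* (-0.57) it hardly moved. What lies behind these shifts was not tested. The number of members called was 0 in edgeR and 1 with DESeq2 (*miR-30e-5p*). Over the whole table, 2 miRNAs were called in edgeR, 21 with DESeq2, 1 with library totals only, 0 with RLE size factors (82 at an unadjusted p of 0.05) and 0 with the epithelial covariate (35 at an unadjusted p of 0.05). The whole-table count ran from 0 to 6 with single libraries left out, being 0 without CNLX1, CNLX3, CNLX5, CNLX7, CNLX15, CNLX19 or CNLX21 (62 to 80 at an unadjusted p of 0.05), 1 without CNLX9, 4 without CNLX13, 5 without CNLX17 and 6 without CNLX23. The cause of these shifts was not tested.

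The log2 ratio of *miR-30b-3p* to *miR-30b-5p*, -0.37, turned to 0.12 (exact permutation test, p = 0.580) with a pseudocount of 10, which is about as large as the counts of *miR-30b-3p* themselves. The log2 difference for *miR-30b-5p* to *miR-30d* ran from 0.035 to 0.31 with single libraries left out. Pearson's r of *miR-30d* with *miR-30b-5p* turned from -0.03 to 0.037 without the 2 farthest libraries. The family share differed by -2.92 percentage points between breeds, and by -3.53 to -2.23 with single libraries left out. No paired analysis of the breeds was possible because they are different cows with 1 library each. P-values measure the spread between these cows, 1 library each. For *miR-30b-3p*, depth limits every statement. For the other members the spread between cows does, beside the uncertain split of reads between members, the mix of cells in a biopsy and the tag order that follows breed.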
